A study of Triticum aestivum with 18 samples.

Results

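The genes annotated as abscisic acid (ABA) 8'-hydroxylases were followed through salt-treated wheat seedlings. They were the 6 rows of the deposited gene table, out of 134610 genes, whose description reads ABA 8'-hydroxylase in any letter case. The fully spelled form of the name occurred in 0 rows, and a looser match to the family found the same number of rows, 6. Only 28426 rows carry a description, so further copies without one would be missed. All 6 genes also carry the cytochrome P450 domain, as 1587 genes of the table do.

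RNA-seq libraries of bread wheat, cultivar Jimai 22, were prepared from 6 groups of 3 libraries. Roots came from control seedlings (CG), from seedlings given 150 mM NaCl (TG) and from seedlings given 5 mM 3-MA and 150 mM NaCl (TMG). Leaves (the third of each plant) came from the same treatments and are named CY, TY and TMY. 3-MA (3-methyladenine) is an inhibitor of autophagy, the recycling of cell contents in the vacuole, and was added 5 h before NaCl. Tissue was taken at day 4, each replicate mixed 10 roots or 10 leaves, and no library received 3-MA without NaCl. All groups therefore describe whole organs of seedlings of 1 cultivar in nutrient solution, in which fewer cells of a type and less RNA per cell cannot be told apart.

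ABA accumulates in salt-stressed and drought-stressed plants, closes stomata and slows growth. Its level is set by synthesis from carotenoids and by breakdown. ABA 8'-hydroxylases, P450 monooxygenases of the CYP707A family, add a hydroxyl group to the hormone, and the product rearranges to phaseic acid, the main route of ABA inactivation in plants. Bread wheat is hexaploid, so most genes occur as near-identical copies on the A, B and D chromosomes. How reads were shared among such copies is not given in the sources used here, so levels of single copies are uncertain to that extent.

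The 6 genes formed 2 trios of A, B and D copies. The chromosome 6 trio was TraesCS6A02G271300 (chromosome 6A, 498006802 to 498009548, plus strand), TraesCS6B02G298500 (chromosome 6B, 536003345 to 536005986, plus strand) and TraesCS6D02G243800 (chromosome 6D, 346098635 to 346101306, plus strand). The chromosome 5 trio was TraesCS5A02G238000 (chromosome 5A, 454434541 to 454437584, minus strand), TraesCS5B02G236500 (chromosome 5B, 417549704 to 417552736, minus strand) and TraesCS5D02G244900 (chromosome 5D, 353510587 to 353513609, minus strand). Positions are those of the deposited table on the Chinese Spring assembly. All are listed as protein coding, and the lengths the authors used for them run from 1869 to 2241 bases. Below, each gene is named by its chromosome.

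The libraries held 27156078 to 33150906 counts. Levels are given as CPM (counts scaled to a common library size) after TMM scaling, a factor per library that was 0.607 to 0.746 in CY and 0.865 to 1.27 elsewhere. Of 138 leaf marker genes (chlorophyll a-b binding proteins, the small Rubisco subunit and photosystem I subunits), the summed level was 90268 to 203010 CPM in CY, 37127 to 44334 CPM in TY and 16284 to 27840 CPM in TMY, against 20.3 to 556 CPM in the root groups. The 16 genes of a root list (Casparian strip, nitrate uptake and nicotianamine synthase genes) were lower in roots, at 17.1 to 80.1 CPM, than in leaves, at 86.9 to 275 CPM. Of them 1, 6 and 7 were at 0 in CG, TG and TMG, and 7, 6 and 7 in CY, TY and TMY. The root label therefore rests on the near absence of leaf markers.

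Between the trios the data showed a sharp difference in place. The chromosome 6 genes were read in every library of both organs, and in every group they were the 3 highest of the 6 genes by CPM per kb of gene length. In control roots the 6A and 6D genes stood at 79.7 ± 8.25 and 78.9 ± 5.76 CPM per kb (SD, n = 3), above 98.7% of the 90540 genes with a count there, and the 6B gene at 32.0 ± 1.18 CPM per kb. In control leaves the order was 6A at 140 ± 28.9, 6B at 102 ± 15.2 and 6D at 91.5 ± 15.1 CPM per kb (SD, n = 3), where the range of the 6A gene (106 to 158) overlapped those of the 6B gene (84.3 to 112) and the 6D gene (77.6 to 108), which overlapped each other.

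The chromosome 5 genes were leaf transcripts. In control leaves they stood at 3.01 ± 0.659, 5.66 ± 0.331 and 5.92 ± 0.659 CPM per kb (SD, n = 3) for the 5A, 5B and 5D genes. In roots they were at or near 0. The 5A gene had 0 counts in CG and in TMG and 1 count in TG, the 5D gene had 2, 6 and 0 counts over the libraries of CG, TG and TMG, and the 5B gene had 20, 2 and 2. All root counts of TG came from its replicate 1, and in CG the 5B gene had 3, 11 and 6 counts in replicates 1, 2 and 3.

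With a floor of 3 counts over a group, the 5A gene was at least 166-fold higher in CY than in CG and at least 302-fold higher in TMY than in TMG, and the 5D gene was at least 513-fold higher in TMY than in TMG. Where a root group had counts, ratios are given with 95% counting intervals, which cover counting error only. The 5A gene was 359-fold higher in TY than in TG (63.9 to 14233). The 5B gene was 46.7-fold (29.9 to 76.9), 322-fold (88.6 to 2665) and 504-fold (139 to 4168) higher in control, NaCl and 3-MA + NaCl leaves than in the matching roots. The 5D gene was 485-fold (134 to 4012) higher in CY than in CG and 83.8-fold (38.1 to 230) higher in TY than in TG. These genes passed the filter on low counts through their leaf libraries, so no call is read from a fit of roots against leaves.

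**Figure D1:**
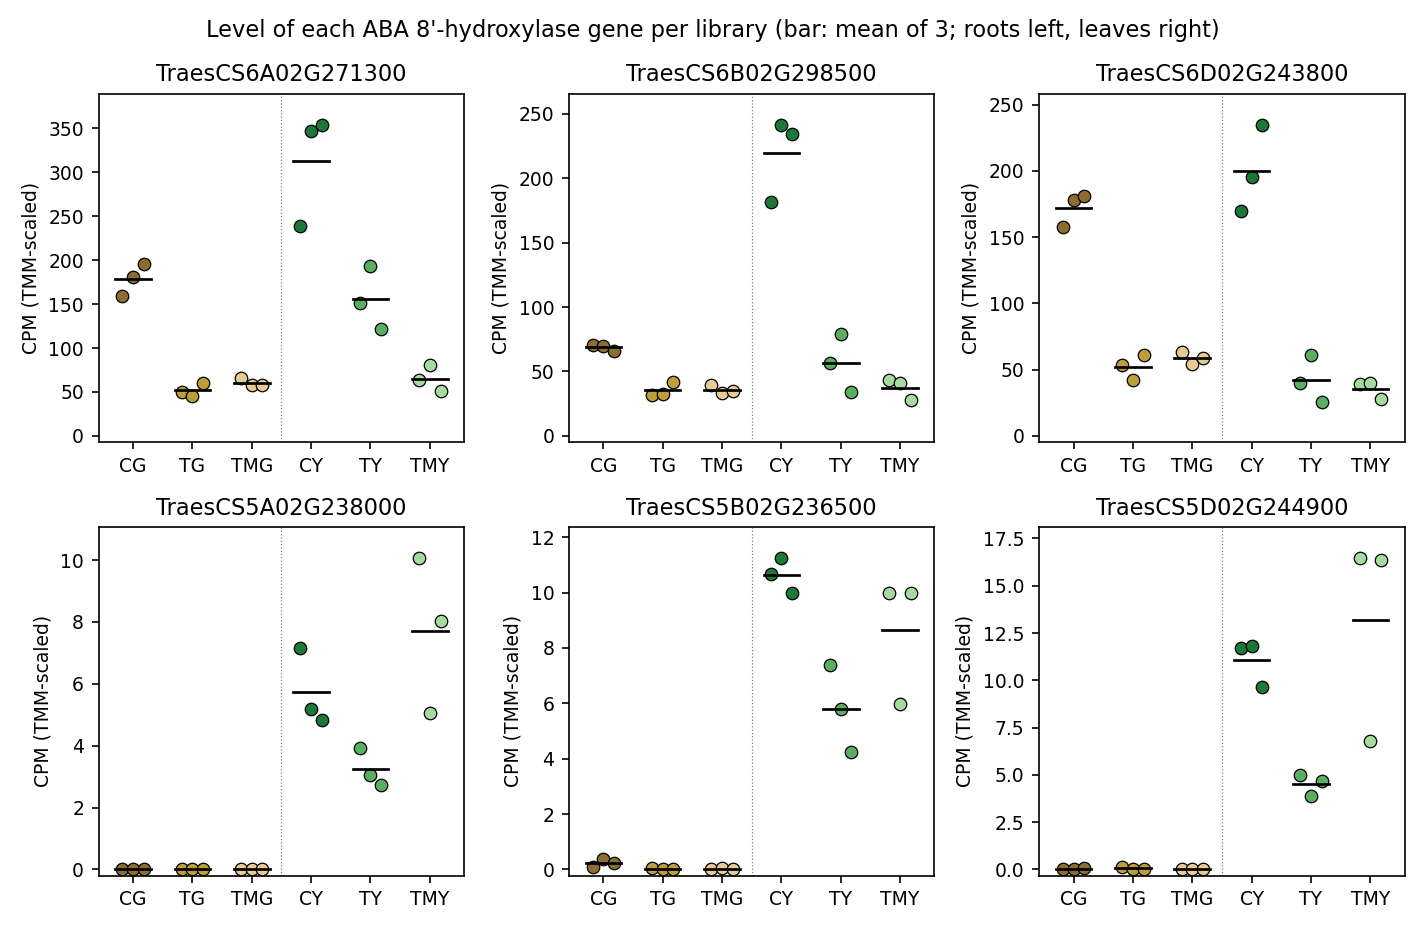
CPM (TMM-scaled, linear axis from 0) of each gene in each of the 18 libraries, 1 panel per gene, with the 3 replicates of a group in order and a bar at their mean. The chromosome 6 genes (top) were read in roots and leaves and had their highest mean in CY, where the 6D libraries overlapped those of CG. The chromosome 5 genes (bottom) were read in leaves and had 0 to 11 counts per root library.

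The chromosome 6 genes were lower in salt-treated roots than in control roots. The 6A gene had 159, 181 and 196 CPM in the CG libraries and 50.1, 45.1 and 60.4 CPM in the TG libraries. The 6D gene had 158, 178 and 181 CPM in CG and 53.5, 41.8 and 60.8 CPM in TG. The 6B gene had 70.8, 69.8 and 66.0 CPM in CG and 31.8, 32.8 and 41.8 CPM in TG. Every control library was above every NaCl library for all 3 genes. The groups did not overlap, in either direction, for 51.3% of the genes tested in this comparison.

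The log2 fold changes were -1.76 (SE 0.165, adjusted p = 2.305e-04) for the 6A gene, -1.70 (SE 0.173, adjusted p = 3.178e-04) for the 6D gene and -0.93 (SE 0.148, adjusted p = 0.00207) for the 6B gene (edgeR quasi-likelihood test, Benjamini-Hochberg over all genes tested). All 3 members tested were therefore called lower, beside 35.6% of all 73066 genes called in TG vs CG and 17.1% called lower. The calls held in each of the 6 fits that left out a library. With library size as the only scaling, which moved the median of all genes by 0.23 and the share of calls that were higher from 51.9% to 69.9%, the changes were -1.52, -1.46 and -0.70 for 6A, 6D and 6B and were still called. With 3 libraries against 3, exact permutation of 1 gene allows no p below 0.1, so these p-values lean on the spread shared across genes. The chromosome 5 genes were below the minimum count and were not tested in the pairwise root fits. The 3 CG libraries of the 5B gene, with 3 to 11 counts, lay above the TG libraries, with 0 to 2. In edgeR fits that kept 5B, the change from CG to TG was -3.41 with all 18 libraries in one fit. With no filter it was -3.44 (adjusted p = 0.0644). The change from CG to TMG was -3.47 with all 18 libraries and -3.50 (adjusted p = 0.0319) with no filter. The gene passed the filter of the 18-library fit through its leaf libraries, so no call is read from that fit.

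Among the other genes with a P450 domain more were called higher than lower. Of 1581 such genes 637 were tested in TG vs CG, of which 238 were called higher and 132 lower. That was 58.1% called and 20.7% lower, beside 35.6% and 17.1% of all genes. Their median log2 fold change was 0.37 beside 0.03 over all genes.

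Adding 3-MA to the salt treatment left the root levels near those of NaCl alone. The TMG libraries held 65.6, 57.8 and 57.9 CPM of the 6A gene, 39.6, 33.4 and 34.6 CPM of the 6B gene and 63.1, 54.3 and 58.4 CPM of the 6D gene. These ranges overlapped those of TG for all 3 genes. The log2 differences between TMG and TG were 0.22 (SE 0.131), 0.01 (SE 0.136) and 0.17 (SE 0.148) for the 6A, 6B and 6D genes, with edgeR adjusted p of 0.284, 0.962 and 0.472. None of the 3 was called by edgeR or by DESeq2, and 0 had an unadjusted p under 0.05, beside 20.2% of all genes called in TMG vs TG.

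Against control roots, the 3-MA + NaCl roots remained lower for all 3 genes. The log2 fold changes from CG to TMG were -1.54, -0.91 and -1.53 for the 6A, 6B and 6D genes (edgeR adjusted p of 1.382e-06, 3.543e-05 and 1.031e-06). This comparison shares the CG libraries with the NaCl comparison, and 56.6% of all genes were called in it, 28.5% lower.

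In leaves, members of both trios were lower under salt. For the 6A gene the CY libraries held 239, 347 and 354 CPM and the TY libraries 151, 193 and 122 CPM. For the 6B gene they held 182, 241 and 234 CPM against 56.4, 79.2 and 34.4 CPM. For the 6D gene they held 169, 195 and 235 CPM against 39.9, 61.3 and 26.0 CPM. TY replicate 2 was the highest and TY replicate 3 the lowest of the NaCl leaves for all 3 genes, and no NaCl library reached a control library.

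The chromosome 5 genes were lower in TY as well. The 5D gene had 11.7, 11.8 and 9.64 CPM in CY and 5.00, 3.87 and 4.69 CPM in TY. The 5B gene had 10.7, 11.2 and 10.0 CPM in CY and 7.37, 5.79 and 4.23 CPM in TY. The 5A gene had 7.15, 5.20 and 4.82 CPM in CY and 3.92, 3.04 and 2.74 CPM in TY. The groups did not overlap for any of the 6 genes, as for 43.1% of all genes tested.

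By the edgeR test 5 of the 6 genes were called lower in TY vs CY, beside 23.3% of all genes called and 13.2% called lower. The log2 fold changes of the chromosome 6 genes were -2.17 for 6D (SE 0.302, adjusted p = 0.00273), -1.89 for 6B (SE 0.293, adjusted p = 0.00397) and -0.95 for 6A (SE 0.229, adjusted p = 0.0196). Those of the chromosome 5 genes were -1.23 for 5D (SE 0.187, adjusted p = 0.00368), -0.82 for 5B (SE 0.221, adjusted p = 0.0299) and -0.76 for 5A (SE 0.249, adjusted p = 0.0562), the last of which was not called. DESeq2 called all 6, with an adjusted p of 0.0365 for 5A.

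The 6D, 6B and 5D calls held in every fit that left out a library. The 6A call was lost without TY replicate 1 (adjusted p = 0.0716) or TY replicate 3 (adjusted p = 0.0769). The 5B call was lost without CY replicate 1 (0.0744), CY replicate 2 (0.063), TY replicate 2 (0.0716) or TY replicate 3 (0.0895), so that 3 members were called without TY replicate 3. Scaling by library size alone moved the median of all genes by 0.35 on the log2 scale in this comparison and the share of calls that were higher from 43.3% to 75.8%. All 6 genes stayed lower under it, at -0.61, -1.56 and -1.83 for 6A, 6B and 6D and -0.42, -0.48 and -0.89 for 5A, 5B and 5D, with 3 of them called.

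Of the other P450 genes 435 were tested in TY vs CY, of which 57 were called higher and 100 lower, with a median log2 fold change of -0.25 beside 0.02 over all genes. The summed leaf markers fell alongside, as given above, and their part in these differences was not tested.

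With 3-MA added (TMY vs TY), the 6A gene was called lower in leaves and the 5A and 5D genes were called higher. The comparison shares the TY libraries with that of NaCl. For the 6A gene the TMY libraries held 63.1, 80.9 and 51.6 CPM, all below the TY libraries. For the 5D gene they held 16.5, 6.81 and 16.4 CPM and for the 5A gene 10.1, 5.05 and 8.03 CPM, all above the TY libraries. TMY replicate 2 was the lowest of the 3 for every chromosome 5 gene and the highest for the 6A gene. The remaining genes overlapped with TY, at 43.3, 41.0 and 27.6 CPM for 6B, 38.8, 40.1 and 27.6 CPM for 6D and 9.97, 5.98 and 10.0 CPM for 5B.

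The 6A gene was called lower in TMY than in TY (log2 fold change -1.20, SE 0.231, edgeR adjusted p = 0.0111). The 5A gene (1.32, SE 0.289, adjusted p = 0.0180) and the 5D gene (1.61, SE 0.339, adjusted p = 0.0155) were called higher. The changes of 6B (-0.55, adjusted p = 0.250), 6D (-0.20, adjusted p = 0.684) and 5B (0.64, adjusted p = 0.156) did not pass the edgeR test. Thus 3 of the 6 genes were called, beside 18.4% of all genes tested, made up of 8.44% of all genes tested called higher and 9.94% called lower. The groups did not overlap for the 3 called genes, as for 38.5% of all genes tested.

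When each library was left out in turn, the log2 fold changes ran from -1.36 to -1.01 for 6A, from 1.09 to 1.58 for 5A and from 1.44 to 1.95 for 5D. The 6A call missed the threshold without TMY replicate 1 (adjusted p = 0.0509). The 5A call was lost without TMY replicate 1 (0.0722), TMY replicate 3 (0.0535), TY replicate 2 (0.0625) or TY replicate 3 (0.0672). The 5D call was lost without TMY replicate 1 (0.065), TMY replicate 3 (0.0517), TY replicate 1 (0.0536), TY replicate 2 (0.0599) or TY replicate 3 (0.0522). Each change kept its direction in these fits. Without TMY replicate 2, the library in which the chromosome 5 genes were low, the 5D change was 1.95 (adjusted p = 2.892e-04) and the 5B change, 0.88, was called too (adjusted p = 0.0297). The count of members called was 0 without TMY replicate 1 and 1 without TY replicate 2, TY replicate 3 or TMY replicate 3.

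Against control leaves, the chromosome 6 genes were lower in TMY by log2 fold changes of -2.19 for 6A, -2.48 for 6B and -2.41 for 6D (edgeR adjusted p of 4.963e-04, 2.629e-04 and 2.233e-04). The chromosome 5 genes were not called, at 0.51 for 5A, -0.22 for 5B and 0.34 for 5D (edgeR adjusted p of 0.208, 0.498 and 0.454). So 3 of 6 members were called in TMY vs CY, beside 37.2% of all genes and 20.6% lower, and the comparison shares the CY libraries with the NaCl comparison. Without TMY replicate 2 the 5A gene (0.75, adjusted p = 0.0452) and the 5D gene (0.66, adjusted p = 0.0256) were called higher as well, 5 members in all. With library size alone 5A was called higher (1.04, adjusted p = 0.0195) and 5B turned to 0.31, not called.

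**Figure D2:**
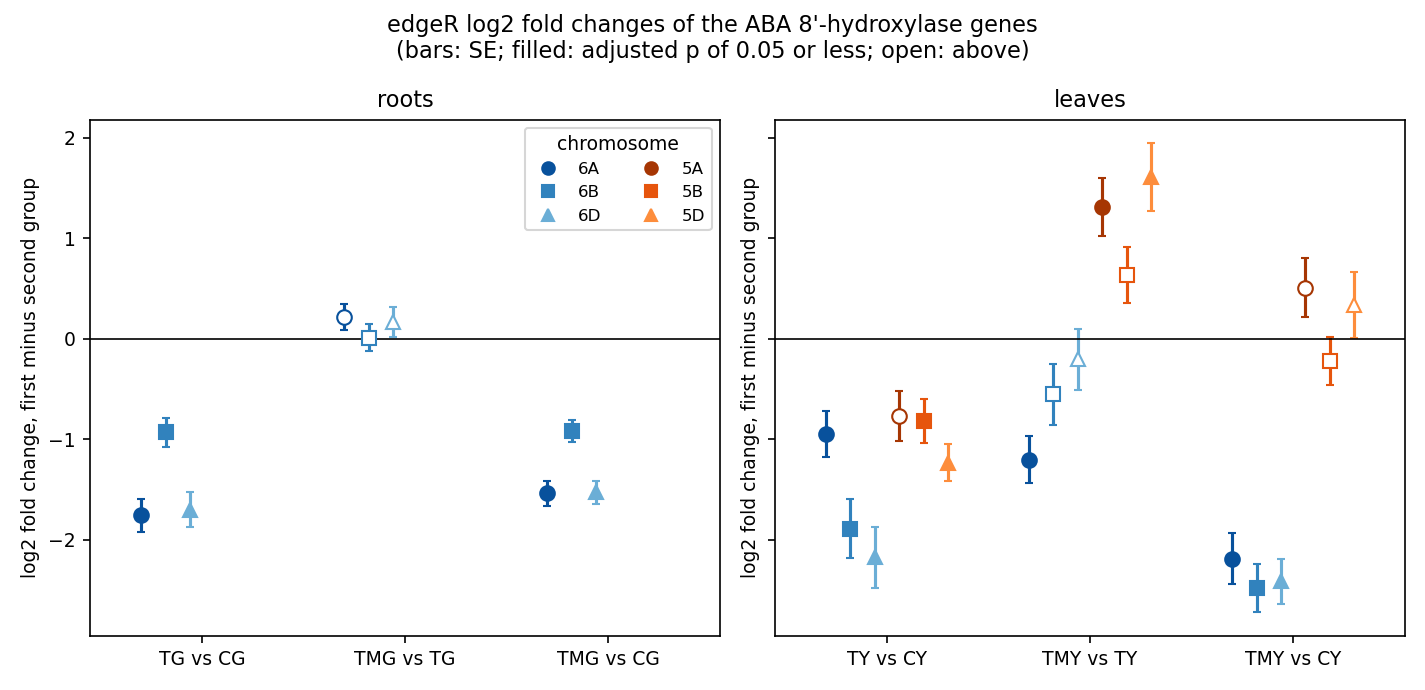
Log2 fold change of each tested gene (first minus second group, edgeR), with bars of 1 SE, in the root comparisons (left) and the leaf comparisons (right). Filled symbols have an adjusted p of 0.05 or less. In TMY vs TY the chromosome 6 genes lie at -1.20 to -0.20 and the chromosome 5 genes at 0.64 to 1.61. Only 6A, 5A and 5D are filled there.

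Whether roots and leaves answered differently was tested as an interaction on 12 libraries. The root counts of the chromosome 5 genes were at or near 0, and their terms are not read. For NaCl, none of the 3 chromosome 6 genes passed by edgeR, beside 11.1% of all genes, and DESeq2 called 0 of them. The terms, root change minus leaf change, were -0.83 for 6A (unadjusted p = 0.0165, edgeR adjusted p = 0.0975), 0.94 for 6B (unadjusted p = 0.0193, adjusted p = 0.108) and 0.46 for 6D (adjusted p = 0.494), so 2 of the 3 had an unadjusted p under 0.05. The 6B term was called without TY replicate 2 (1.31, adjusted p = 0.022).

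For 3-MA under NaCl, 1 of the 3 chromosome 6 genes passed, beside 10.5% of all genes. For the 6A gene the root change (0.22, not called) minus the leaf change (-1.20, called lower) gave a term of 1.33 on the log2 scale in the joint fit (SE 0.281, edgeR adjusted p = 0.0123), and the call held in 12 of 12 fits that left out a library and in 7 of 7 alternatives. The terms were 0.48 for 6B (adjusted p = 0.458) and 0.29 for 6D (adjusted p = 0.707).

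In roots against leaves of the same treatment the chromosome 6 genes took different courses. Of all genes 65.4%, 63.8% and 60.8% were called in CG vs CY, TG vs TY and TMG vs TMY, and 29.3%, 28.2% and 27.8% were called lower in roots. The 6A gene was lower in roots in the control by -0.80 (edgeR adjusted p = 0.00757) and under NaCl by -1.59 (adjusted p = 2.367e-04), and stood at -0.17 (adjusted p = 0.433) under 3-MA + NaCl. The 6B gene was lower in control roots by -1.66 (adjusted p = 2.299e-05), and at -0.69 under NaCl (adjusted p = 0.063), where the call appeared without TY replicate 3 (-0.96, adjusted p = 0.00733). The 6D gene did not pass in the control (-0.21, adjusted p = 0.355) or under NaCl (0.29, adjusted p = 0.424), and was higher in roots under 3-MA + NaCl (0.66, adjusted p = 0.00877), as were 33.0% of all genes. The organs differ in their scaling factors: with library size alone the 6A difference in controls was -0.22 (adjusted p = 0.386) and that of 6D changed sign to 0.39 (adjusted p = 0.0851). Under NaCl the 6D difference ran from 0.29 to 0.76 over 7 alternatives, of which 1 called it. That of 6B ran from -0.69 to -0.21 and was called in 1 of 7.

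The balance within the chromosome 6 trio moved with treatment, and that of the chromosome 5 trio was compared in leaves only. In roots the 6B share of the summed CPM per kb of the chromosome 6 trio was 18.7%, 16.7% and 15.2% in CG, 23.9%, 27.9% and 26.1% in TG and 24.0%, 23.4% and 23.4% in TMG. The 6A share went from a mean of 41.8% in CG to 36.5% in TG and 38.3% in TMG. Salt roots therefore held the 3 copies in more even proportions than control roots.

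In leaves the 6A copy came to hold most of the trio under salt. Its share was 39.7%, 43.4% and 42.2% in CY, 60.2%, 57.0% and 66.1% in TY and 42.6%, 49.1% and 47.5% in TMY. The 6D share went from a mean of 27.6% in CY to 16.5% in TY and stood at 26.0% in TMY, and the 6B share was 30.6%, 22.4% and 27.6%. All TY libraries lay outside the range of CY and TMY for each of the 3 copies.

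An exact permutation test over the 9 libraries of an organ, with 1680 splits and a smallest possible p of 0.003571, gave p = 0.003571, 0.00714 and 0.0321 for 6A, 6B and 6D in roots. In leaves the exact p was 0.00714, 0.00714 and 0.0107 for 6A, 6B and 6D and 0.0714, 0.0179 and 0.0929 for 5A, 5B and 5D. These 9 tests share libraries and the shares of a trio sum to a fixed total, and the p-values are not adjusted. The 5B share of its trio in leaves was 38.9 ± 2.49% in CY, 42.4 ± 5.30% in TY and 30.0 ± 3.20% in TMY (SD, n = 3).

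**Figure D3:**
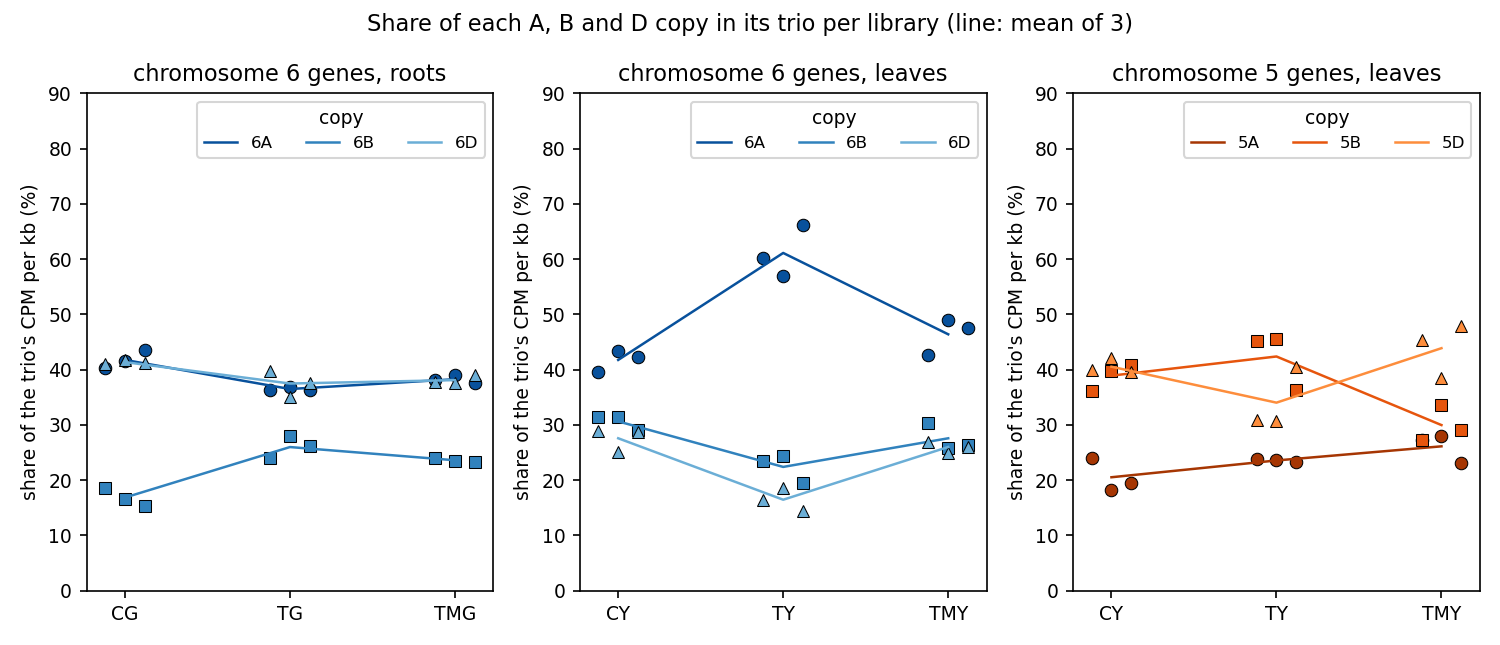
Share of each copy in the summed CPM per kb of its trio (percent, axis from 0) in each library, with lines through the means of 3 libraries, for the chromosome 6 trio in roots (left) and leaves (middle) and the chromosome 5 trio in leaves (right). The 6A share in leaves was 57.0% to 66.1% in TY and 39.7% to 49.1% in CY and TMY.

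Summed over the 6 genes, the level in roots was 191 ± 12.96 CPM per kb in CG, 63.5 ± 9.96 in TG and 70.5 ± 5.44 in TMG (SD, n = 3). In leaves it was 348 ± 55.6 in CY, 122 ± 34.6 in TY and 78.4 ± 10.1 CPM per kb in TMY. Control was thus 3.00-fold above NaCl in roots and 2.84-fold in leaves (2.504-fold and 2.155-fold with library size alone), and the CY libraries (284 to 387) and TY libraries (88.5 to 158) did not overlap. The TY and TMY libraries (66.8 to 85.4) did not overlap either, but with library size alone TY (82.1 to 136) and TMY (68.7 to 89.4) did. The chromosome 5 trio made up 4.31 ± 1.11% of the sum in CY, 6.16 ± 1.63% in TY and 20.5 ± 8.21% in TMY, from 11.4% in TMY replicate 2 to 27.4% in TMY replicate 3, and at most 0.201% in any root library.

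The other steps of ABA metabolism and response were looked up by description. The list for synthesis held 8 genes, namely 3 zeaxanthin epoxidases, which make the xanthophyll precursors, 2 genes of 9-cis-epoxycarotenoid dioxygenase (NCED), the first enzyme committed to ABA, and 3 molybdenum cofactor sulfurases, which activate the last oxidase. None of the 8 was called in TG vs CG by the main edgeR fit, beside 35.6% of all genes called. There 3 had an unadjusted p under 0.05, and DESeq2 called 1. By edgeR 2 were called higher with library size alone, and 2 higher and 1 lower with all 18 libraries in one fit. Without TG replicate 1 there were 1 higher and 1 lower. In TY vs CY 5 of them were called lower and 0 higher, beside 13.2% of all genes lower, with a median log2 fold change of -0.54 beside 0.02 over all genes. The largest was in the sulfurase gene TraesCS7D02G457800, which went from 17.7 ± 4.26 to 8.36 ± 1.89 CPM (SD, n = 3, log2 fold change -1.02, edgeR adjusted p = 0.0177). That call was lost without TY replicate 3 (adjusted p = 0.0603). The count in this list was 1 without TY replicate 1, 2 without CY replicate 1, 3 without TY replicate 2 and 0 without TY replicate 3, and with library size alone it was 0 lower and 1 higher.

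With 3-MA, 2 of the 8 synthesis genes were called lower in roots (TMG vs TG). Beside them 8866 of all 73651 genes were called lower and 20.2% in either direction. That count of 2 was 1 without TG replicate 2 and 0 without TMG replicate 1, 2 or 3. In leaves (TMY vs TY) 3 were called lower, beside 9.94% of all genes. The leaf count was 2 without TMY replicate 1 or TY replicate 1, 2 or 3. Without TMY replicate 2 there were 4 lower and 1 higher. The 3 in leaves were the zeaxanthin epoxidases, named after their values were seen. All 3 were also called lower in TY vs CY. Their group means were 452.4 to 579.5 CPM in CY and 168.9 to 186.4 CPM in TMY, against 8.72 to 13.9 CPM in CG. The summed leaf markers were lower in TY and TMY as well, and their part in these differences was not tested. The call of TraesCS2B02G335400 held in 1 of 6 left-out fits, and those of TraesCS2A02G317000 and TraesCS2D02G314900 in 6 of 6. Neither NCED gene was called by the main edgeR fits of TG vs CG, TMG vs TG, TY vs CY or TMY vs TY. Both were called lower in TMG vs CG, which shares the CG libraries and in which 28.5% of all genes were called lower. TraesCS5A02G374000, named like the next after its values were seen, stood at -1.62 in TG vs CG (edgeR adjusted p = 0.0715) and -2.28 in TMG vs CG (adjusted p = 1.787e-04). TraesCS5D02G383500 stood at -1.52 in TMY vs TY (edgeR adjusted p = 0.0530) and -0.64 in TMG vs CG (adjusted p = 0.0469). The TMG vs CG call of TraesCS5D02G383500 held in 1 of 6 fits that left out a library, and that of TraesCS5A02G374000 in 6 of 6. The mean levels of both genes over the groups were 0.559 to 5.85 CPM.

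Protein phosphatases 2C include the negative regulators of ABA signalling. The list held 13 genes, 9 of them new genes of the authors named only by their protein domain, so most are not known to act in this pathway. In TG vs CG 4 were called lower and 0 higher, beside 17.1% of all genes lower. The largest change was in 1 of the new genes, at 70.1 ± 10.5 CPM in CG (SD, n = 3), with a log2 fold change of -1.93 (edgeR adjusted p = 1.37e-04). In TY vs CY 4 of 12 tested were called lower and 0 higher, beside 13.2% of all genes lower, a count of 2 without CY replicate 1, and the largest change was in TraesCS3A02G209200, from 51.9 ± 7.02 to 20.9 ± 3.69 CPM (SD, n = 3, log2 fold change -1.26, edgeR adjusted p = 0.00352). With 3-MA 1 was called lower in roots, where 20.2% of all genes were called in either direction, a count of 0 without TMG replicate 1, 2 or 3 and of 2, with 1 higher, without TG replicate 1. In leaves 1 was called higher and 1 lower, beside 18.4% of all genes called.

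Of genes described as ABA-regulated, 3 were found. TraesCS4D02G109500, annotated as an abscisic stress-ripening protein, had 34.7 ± 15.1 CPM in CG, 66.2 ± 6.90 CPM in TG and 5.40 ± 1.32 CPM in TMG (SD, n = 3). Its rise under NaCl passed the test (0.96, edgeR adjusted p = 0.0359) but not without CG replicate 1 (0.0984), CG replicate 2 (0.0557) or TG replicate 2 (0.0891), and its fall with 3-MA was -3.62 (adjusted p = 1.036e-04). In leaves it stood at 21.5 ± 5.93 CPM in CY, 31.8 ± 4.28 CPM in TY (0.63, adjusted p = 0.0552, and 0.0203 without CY replicate 3) and 12.0 ± 2.58 CPM in TMY (-1.35, adjusted p = 0.00347). The difference between TY and CY passed with DESeq2 (adjusted p = 0.0397), with library size alone (1.00, edgeR adjusted p = 0.00652) and with a stricter filter on low counts (edgeR adjusted p = 0.0484).

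The ABA inducible gene TraesCS1B02G381500, at 0.354, 1.34 and 4.40 CPM in CG, TG and TMG, was not called by edgeR in TG vs CG (1.93, adjusted p = 0.067) or TMG vs TG (1.71, adjusted p = 0.087), while DESeq2 called it in both (adjusted p of 0.0229 and 0.0158). By edgeR it passed in the first with library size alone (0.0399) or without TG replicate 1 (0.0166) or TG replicate 3 (0.0285) and in the second without TG replicate 2 (0.00474). The ABA induced plasma membrane protein gene TraesCS5D02G558800, at 1.57, 1.11 and 2.20 CPM, was not called by edgeR either (adjusted p = 0.397 and 0.0645), and passed in TMG vs TG with DESeq2 (0.99, adjusted p = 0.0324) and, by edgeR, without TG replicate 1 (0.0166). Both were at or near 0 in leaves. The 3 factor genes found, TraesCS3A02G371800 (an ABA response element binding factor), TraesCS3B02G452200 (VIVIPAROUS1) and TraesCS3D02G364900 (a bZIP factor), were at or near 0 and were not tested. No description matched an ABA receptor, an SnRK2 kinase or an ABA glucosyltransferase, so these steps were not analysed here.

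**Figure D4:**
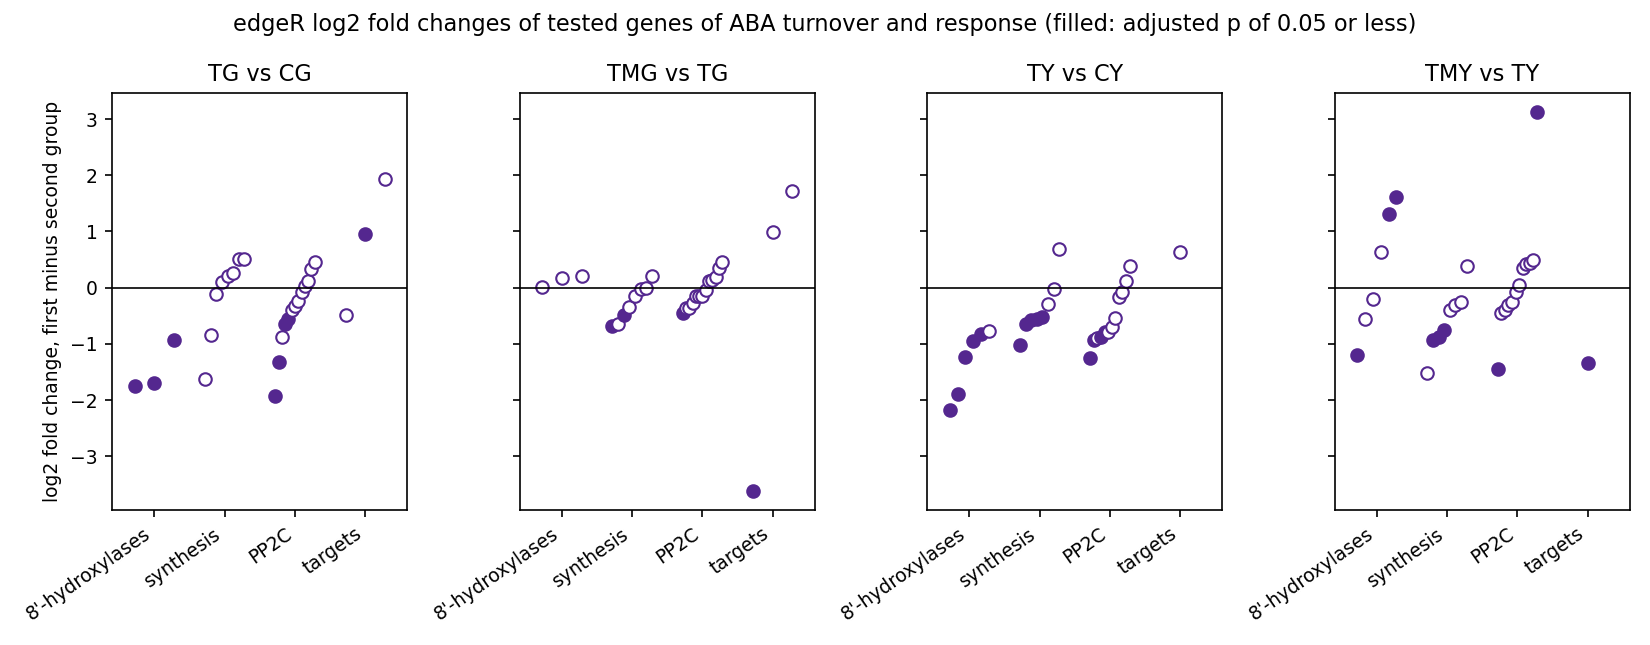
Log2 fold change (first minus second group, edgeR) of each tested gene in 4 lists, the 8'-hydroxylases, ABA synthesis, protein phosphatases 2C (PP2C) and ABA-regulated targets, with 1 panel per comparison and points ordered by value within a list. Filled points have an adjusted p of 0.05 or less: 3 of 3 hydroxylases tested in TG vs CG and 5 of 6 in TY vs CY, beside 0 and 5 of 8 synthesis genes.

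The genes most like each member were taken by Pearson correlation of log2(CPM + 1) over the 9 libraries of an organ, among 9982 described genes in roots and 8884 in leaves. These values are a description only, since 9 libraries in 3 groups share the treatment steps. In roots they were a serine/threonine protein kinase gene, TraesCS2D02G155700, for 6A (r = 0.992) and 6D (r = 0.989), with a new gene of the authors that has an NB-ARC domain (r = 0.990) also for 6A and the phosphatase gene TraesCS1A02G095500 (r = 0.989) for 6D. For 6B they were new genes with a tRNA guanylyltransferase domain (r = 0.985) and an NB-ARC domain (r = 0.984).

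In leaves the 6A gene was most like a new gene with a SecA domain (r = 0.991) and the calcium-transporting ATPase gene TraesCS5A02G068700 (r = 0.988). The 6B and 6D genes shared ENSRNA050021557 (r = 0.987 and 0.983), a predicted RNA, with a new gene that has a reverse transcriptase domain (r = 0.986) for 6B and a new gene of unknown function (r = 0.985) for 6D beside it. For the chromosome 5 genes they were a formin-like gene, TraesCS6B02G389300 (r = 0.974), and a histone methyltransferase gene, TraesCS3B02G265800 (r = 0.970), for 5A. An RNA polymerase subunit gene, TraesCS5B02G095100 (r = 0.965), and a lipoxygenase gene, TraesCS7A02G246200 (r = 0.957), came first for 5B. The DETOXIFICATION transporter gene TraesCS7A02G130300 (r = 0.979), at 47.7, 14.5 and 68.5 CPM in CY, TY and TMY, and the phospholipid-transporting ATPase gene TraesCS2D02G276300 (r = 0.978) came first for 5D.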

How the data were processed

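RNA-seq was done on 18 wheat libraries, 3 in each of 6 groups taken from the sample labels. The count values are raw read counts per gene as deposited by the authors, from 150 bp paired reads mapped to the Chinese Spring assembly. The submitters' processing notes list HISAT2 2.0.5, Bowtie 0.12.2 and the mouse build mm8 with no role, and the counter is not given in the sources used here. FPKM was deposited too; the authors derived it from counts and gene lengths with a factor per library, and it gave an alternative level. The authors' columns of group means, fold changes and p-values from DESeq2 were not used.

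The quasi-likelihood test of edgeR 4.0.16 in R 4.3.3 was run on the counts of each pair of groups (glmQLFit and glmQLFTest, TMM factors, filterByExpr with a minimum count of 10). Adjusted p-values are Benjamini-Hochberg values over all genes tested, and 0.05 was the limit for a call. Interactions used 12 libraries. CPM used TMM factors over all 18 libraries. Alternatives were RLE factors, library size alone, DESeq2 1.42.0, no filter, a filter of 1 CPM in 3 libraries, 1 fit of all 18 libraries, a replicate block, and each library left out. The pairwise edgeR fit was tested on simulated counts with known changes for TG vs CG and TY vs CY. The other fits were not tested in this way. Tables and figures used Python 3.11.15, pandas 2.3.3, numpy 2.4.6, scipy 1.17.1 and matplotlib 3.10.9, and R read its input through the data.table package, version 1.17.8.

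Totals were 27156078 to 33150906 counts per library. No batch is given in the labels, 0 library pairs had identical counts, and nothing beyond the mixing of 10 organs per replicate describes independence, so p-values measure the spread between these libraries. The members and lists were chosen with earlier results of these data known. Other ABA genes were matched by description, with 2 patterns added after the descriptions had been read. Each member was named, and of each other list the called gene with the largest change in TG vs CG and in TY vs CY at a mean of 1 CPM or more, all genes of lists of 3 or fewer, and the 2 described genes most correlated with each member.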

Additional observations from a re-analysis of the deposited data

Results flagged for a closer look

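The 8'-hydroxylase gene TraesCS6A02G271300 changed with 3-MA to a different extent in the 2 organs, by a test of the difference itself. Its interaction term was 1.334 on the log2 scale (edgeR adjusted p = 0.0123), with 51.9 ± 7.78 and 60.4 ± 4.45 CPM in TG and TMG and 155 ± 35.7 and 65.2 ± 14.7 CPM in TY and TMY (SD, n = 3).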

How the results depend on the processing

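Most results kept their direction and their side of the threshold; the cause of the exceptions was not tested. Library size alone shifted the median of all genes by 0.23 (TG vs CG), 0.26 (TMG vs CG), 0.35 (TY vs CY), 0.15 (TMY vs TY), 0.53 (TMY vs CY), 0.59 (CG vs CY), 0.46 (TG vs TY) and 0.34 (TMG vs TMY) on the log2 scale, and the share of calls that were higher went from 51.9% to 69.9%, 49.7% to 64.5%, 43.3% to 75.8%, 45.9% to 62.4%, 44.7% to 76.2%, 55.2% to 71.8%, 55.7% to 70.7% and 54.3% to 67.7%. Under it 3 members were called in TY vs CY, the summed level was 78.0 (TG), 88.3 (TMG) and 236 CPM per kb (CY), and differences turned to 0.31 for 5B in TMY vs CY, 0.39 for 6D in CG vs CY and 0.17 for 6A and 0.22 for 6B in TMG vs TMY, none of them called.

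DESeq2 called 13026 genes and 2 members in 3-MA x tissue, against 8404 and 1. The member added to 6A was 5D, whose term is not read because its root counts were at or near 0. Same-numbered libraries did not vary together (correlations of -0.154 to 0.0829), so the numbers were not taken as pairs. With the replicate block 6785 genes were called in TMY vs TY, against 11923, and 5515 in 3-MA x tissue.

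Leaving out 1 library gave 17124 to 27797 genes called in TG vs CG, 7430 to 16839 in TMG vs TG, 8045 to 13999 in TY vs CY, 5174 to 17369 in TMY vs TY, 5296 to 8995 in NaCl x tissue and 4624 to 12962 in 3-MA x tissue. Members called were 3 to 5 in TY vs CY, 0 to 4 in TMY vs TY and 3 to 5 in TMY vs CY. They were 0 to 1 in NaCl x tissue and 1 to 2 in 3-MA x tissue. These 2 ranges count the chromosome 5 genes, whose terms are not read. The member added to 6A in 3-MA x tissue was 5D. Uncalled changes that crossed 0 were 6B in TMG vs TG (-0.067 to 0.16), 6D in TMY vs TY (-0.47 to 0.17), 5D in NaCl x tissue (-1.37 to 4.98) and, in 3-MA x tissue, 5B (-3.21 to 1.80) and 6D (-0.086 to 0.54). The chromosome 5 genes had 0 to 11 counts per root library, so that depth limits their root values and their terms between organs are not read.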
